A study of Mus musculus with 12 samples.

Results

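The 10 genes described here are known targets of the transcription factor p53 and were among the genes with higher expression in Cre-positive kidneys of a Pkd1 mouse model: Cdkn1a, Ccng1, Plk2, Mdm2, Zmat3, Eda2r, Phlda3, Aen, Trp53inp1 and Gdf15. They were found by symbol among 24062 genes, all 10 were present, and all 10 passed the filter on low counts that left 14970 genes for testing. They were picked on their measured difference between CrePlus and CreMinus kidneys, so that difference is described below without a test, and tests are given only for surgery, for the interaction and for genes outside the set. For the 10 genes, the tests for surgery and for the interaction use the same libraries as that choice.

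RNA-seq was run on whole-kidney RNA of 12 adult Pkd1 mice, 6 to 8 weeks old and all induced with tamoxifen, the drug that switches on an inducible Cre. CrePlus mice carried Cre and CreMinus mice did not, and each genotype had a sham operation or removal of 1 kidney (unilateral nephrectomy, UNx), with kidney taken 4 weeks later. Each of the 4 combinations of genotype and surgery had 3 libraries, and groups are named by both (sham CreMinus, UNx CrePlus and so on). The labels name neither the promoter that drives Cre nor the part of Pkd1 it deletes, and all CreMinus mice received tamoxifen too. Replicates are numbered in the order of their records, and nothing in the labels pairs them.

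p53 is a transcription factor that is kept low in unstressed cells because the ubiquitin ligase Mdm2 marks it for breakdown. DNA damage, oncogene activity and other stresses stabilise it, mostly at the protein level, and it then binds paired half-sites in DNA and switches on genes for cell cycle arrest, DNA repair, cell death and its own shutdown. In the kidney, its targets, above all Cdkn1a, which encodes the cyclin-dependent kinase inhibitor p21, are known to rise in tubular cells after injury.

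Of the 12 libraries, 8 held 18914300 to 22480895 counts and 4 held 41699032 to 42785476, the deep ones being every UNx CrePlus library and replicate 1 of UNx CreMinus. Read from Xist and Y-linked genes, 5 libraries were male, namely replicate 3 of each sham group, replicate 1 of UNx CreMinus and replicates 1 and 2 of UNx CrePlus, and the other 7 female. The deep libraries carry the consecutive numbers 1751 to 1754 in their titles. Depth and sex were thus uneven over the groups. Pkd1, the targeted gene, stood at 76.8, 60.3 and 57.8 CPM (counts scaled to a common library total) in CreMinus kidneys after sham and at 49.4, 49.3 and 71.6 after UNx, and in CrePlus kidneys at 64.1, 46.1 and 45.9 after sham and at 45.5, 39.6 and 45.1 after UNx. The CrePlus range was lower without overlap in UNx kidneys and overlapped with CreMinus in sham kidneys, and because the deleted part is not named, whole-gene counts check the labels only in part. Proximal tubule, loop of Henle, collecting duct, podocyte, endothelial, fibroblast, macrophage and T cell markers were all present, with no marker in the table at 0 across a whole group and 1 listed T cell marker not in the table, so the kidney label fits its marker genes. In whole tissue, a difference in the number of cells that express a gene and a difference in RNA per cell cannot be told apart.

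Promoter sequences were searched for the motif that p53 binds. RefSeq start sites (GRCm38.p6) were listed for 8 of the 10 genes, in 11 windows of 300 bases that run from 250 bases before the start to 50 after it. The p53 half-site (3 purines, a C, 2 bases that are A or T, a G and 3 pyrimidines) is the same on both strands, and a full site here is 2 adjoining half-sites. A full site with at most 1 mismatch occurred in 22 of 32851 promoter windows, or 0.067%, and those of Cdkn1a and Ccng1 were among them. The 250 bases before the start of each are shown with the full site in capitals, since these are the members whose windows hold a match with 1 mismatch.
Cdkn1a: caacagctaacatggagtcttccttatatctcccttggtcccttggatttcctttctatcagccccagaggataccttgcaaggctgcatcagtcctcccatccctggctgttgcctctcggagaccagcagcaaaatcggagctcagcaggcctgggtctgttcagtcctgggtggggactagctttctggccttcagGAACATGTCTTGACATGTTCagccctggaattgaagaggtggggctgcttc
Ccng1: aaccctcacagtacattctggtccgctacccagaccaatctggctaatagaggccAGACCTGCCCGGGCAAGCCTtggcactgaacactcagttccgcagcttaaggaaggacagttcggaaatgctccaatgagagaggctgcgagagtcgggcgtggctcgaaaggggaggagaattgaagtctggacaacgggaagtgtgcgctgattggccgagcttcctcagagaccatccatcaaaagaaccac
The Cdkn1a window is chr17:29090729-29090978 on the plus strand, with its site at chr17:29090928-29090947, 51 to 32 bases before the upstream of its start sites. The last base of the site lies 2822 bases before the downstream start site. The Ccng1 window is chr11:40755287-40755536 on the minus strand, with its site at chr11:40755462-40755481, 195 to 176 bases before the start.

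Weaker matches were present in Aen and Mdm2, shown in capitals for the matched bases alone.
Aen: GGGCTTGTCCGGGCAAGGAG
Mdm2: GAACTTGCCT
The Aen match, at chr7:78895937-78895956 on the plus strand, is a full site with 3 mismatches, and a full site with at most 3 mismatches occurred in 1.38% of all windows. It lies 121 to 102 bases before the downstream of its start sites. The Mdm2 match is a single half-site without mismatch, at chr10:117710935-117710944 on the minus strand, 186 to 177 bases before the start. Such half-sites were common, with at least 1 in 8.36% of all windows. In Eda2r, Gdf15, Phlda3 and Plk2 these letters did not occur in the window, and no window was listed for Zmat3 and Trp53inp1. The sites are sequence matches, and binding was not measured.

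Of the 22 genes whose window held a full site with at most 1 mismatch, 7 were tested, and 5 of these are not in the set. None of these 5 was called for the Cre difference averaged over surgery, for which 0.387% of all tested genes were called higher. The G2 and S phase protein gene Gtse1 differed by 1.15 ± 0.26 in log2 (SE, adjusted p = 0.0991 by edgeR's quasi-likelihood test), and the ribosomal protein gene Rps27l had 0.03 ± 0.09 (adjusted p = 0.921 by the same test). Mthfd1, Calhm2 and Cldn16 had log2 fold changes of -0.09, 0.34 and -0.23.

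Cdkn1a, Eda2r and Zmat3 differed most clearly with Cre: their CrePlus libraries lay above all CreMinus libraries, with and without surgery. Ccng1, Plk2 and Phlda3 also kept the 6 CrePlus libraries above the 6 CreMinus libraries, while Mdm2, Aen, Trp53inp1 and Gdf15 overlapped. Separation of all 6 from all 6 in that direction was seen in 0.882% of all tested genes, and since the genes were chosen on this difference, nothing is read from their share. The members' values in each library follow, in the order of what their products do.

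**Figure D1:**
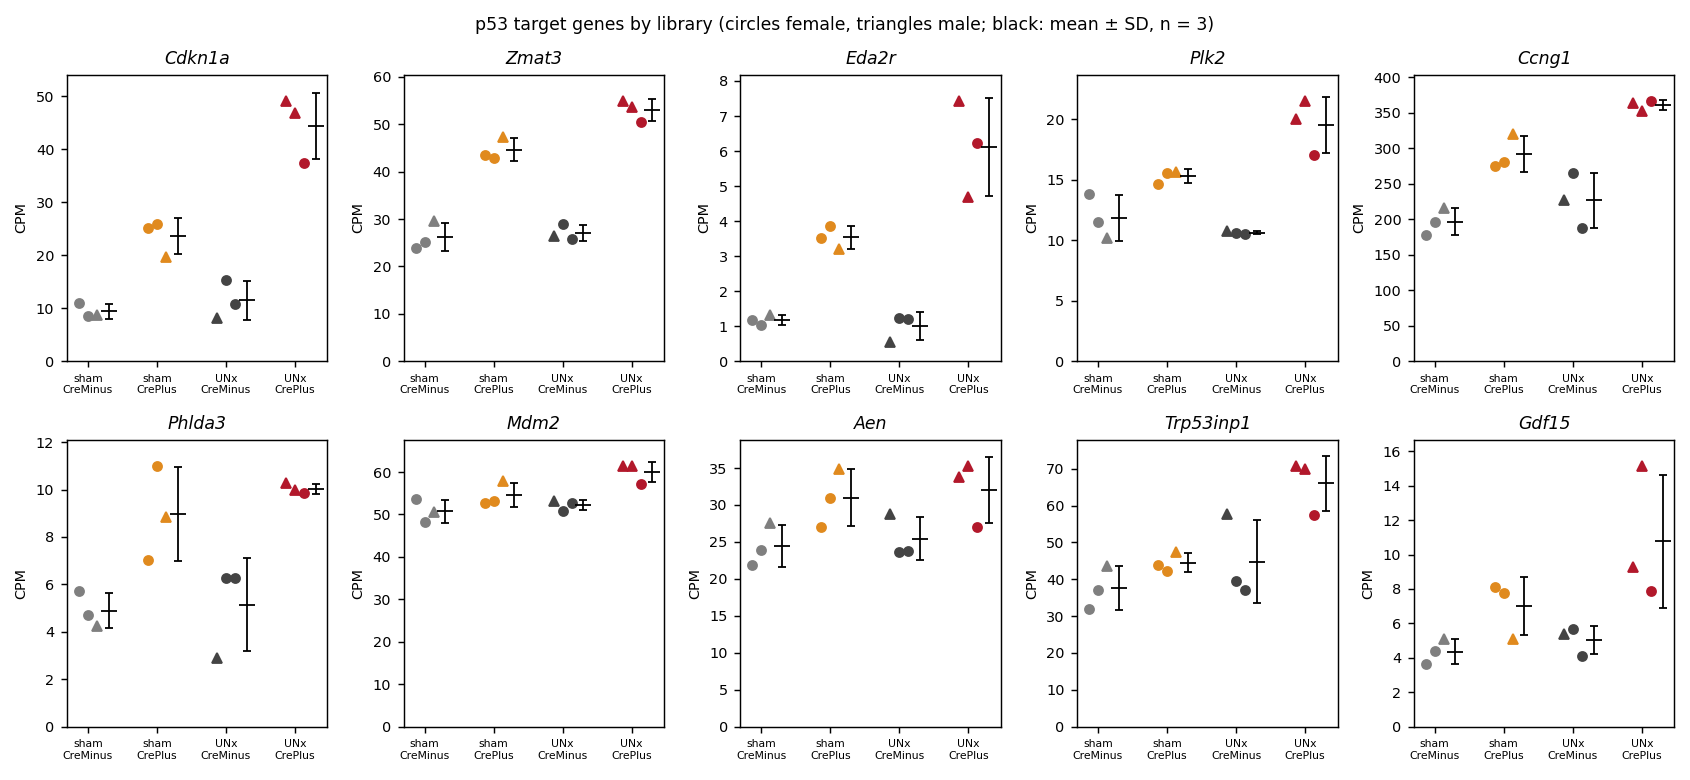
Expression of each of the 10 p53 target genes in CPM (vertical axis, from 0) in the 4 groups of 3 libraries (horizontal axis), with circles for female and triangles for male libraries and black bars for mean ± SD. Cdkn1a, Zmat3 and Eda2r show 2 raised CrePlus groups with UNx CrePlus on top, and Mdm2 and Aen vary little in comparison.

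Of the cell cycle arrest genes, Cdkn1a (chr17:29090979-29100722 in GRCm38, as for the positions that follow) lies on the same chromosome as Pkd1, 4.54 megabases from its start. Its product p21 blocks the cyclin-dependent kinases that drive entry into S phase. Cdkn1a was at 11, 8.60 and 8.65 CPM in CreMinus and at 25.2, 25.8 and 19.6 in CrePlus kidneys after sham, and after UNx at 8.23, 15.4 and 10.7 in CreMinus and at 49.1, 46.8 and 37.3 in CrePlus kidneys. The lowest CrePlus library, sham replicate 3, was above the highest CreMinus library, and every UNx CrePlus library was above every sham CrePlus library. The log2 difference with Cre came to 1.32 ± 0.22 (SE) after sham and 1.96 ± 0.22 after UNx, or 2.50-fold and 3.89-fold. UNx CreMinus replicate 1, the CreMinus library sequenced as deeply as the UNx CrePlus libraries, was the lowest of all 12 at 8.23 CPM.

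Ccng1 (chr11:40748552-40755309) encodes cyclin G1, an atypical cyclin that brings protein phosphatase 2A to Mdm2. Ccng1 was at 178.5, 196 and 215.9 CPM in CreMinus kidneys after sham and at 227.7, 265.6 and 188 after UNx, and in CrePlus kidneys at 275.5, 280.3 and 320.6 after sham and at 363.3, 352.7 and 367.3 after UNx. It separated CrePlus from CreMinus in both surgeries, though sham CrePlus replicate 1 (275.5 CPM) stood close above UNx CreMinus replicate 2 (265.6 CPM). As log2 fold changes, CrePlus stood 0.57 ± 0.13 above CreMinus after sham and 0.67 ± 0.13 above it after UNx. The UNx CrePlus libraries were tightly grouped, with a coefficient of variation (SD over mean) of 2.09%, against 17.1% in UNx CreMinus.

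Plk2 (chr13:110395044-110400844), a stress-responsive polo-like kinase of centrosome duplication and checkpoint control, ranged from 10.2 to 13.9 CPM over the CreMinus kidneys. Plk2 was at 13.9, 11.5 and 10.2 CPM in CreMinus and at 14.6, 15.5 and 15.7 in CrePlus kidneys after sham, and after UNx at 10.7, 10.6 and 10.5 in CreMinus and at 20.1, 21.5 and 17.0 in CrePlus kidneys. The gap between genotypes was narrow in sham kidneys (13.9 against 14.6 CPM for the nearest libraries) and wide in UNx kidneys (10.7 against 17.0 CPM). This gave a Cre difference of 0.37 ± 0.13 (log2) for sham and 0.88 ± 0.13 for UNx animals.

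Mdm2 (chr10:117688875-117710758), the ubiquitin ligase that closes the feedback loop by removing p53, differed least of the 10. Mdm2 was at 53.6, 48.2 and 50.5 CPM in CreMinus kidneys after sham and at 53.1, 50.9 and 52.6 after UNx, and in CrePlus kidneys at 52.7, 53.1 and 57.9 after sham and at 61.5, 61.4 and 57.3 after UNx. The sham groups overlapped, and the UNx CrePlus libraries lay above the UNx CreMinus libraries by a small margin. On the log2 scale CrePlus exceeded CreMinus by 0.10 ± 0.07 after sham and by 0.20 ± 0.07 after UNx. Mdm2 has a p53-responsive internal promoter besides the upstream one, and gene-level counts do not separate the transcripts of each.

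Zmat3 (chr3:32334792-32365665) encodes a zinc finger protein that binds RNA and affects splicing and transcript stability. Zmat3 was at 23.8, 25.2 and 29.5 CPM in CreMinus and at 43.4, 43.0 and 47.4 in CrePlus kidneys after sham, and after UNx at 26.4, 28.9 and 25.7 in CreMinus and at 55.0, 53.6 and 50.4 in CrePlus kidneys. Its spread within groups was small, with coefficients of variation of 4.42% to 11.3%, and no CreMinus library reached 30 CPM. Log2 fold changes with Cre were 0.77 ± 0.09 in sham and 0.97 ± 0.09 in UNx kidneys, the smallest SE beside the size of the change among the 10 genes.

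Among the genes tied to cell death and survival signalling, Eda2r had the largest fold difference and the lowest level. It encodes a receptor of the tumour necrosis factor receptor family that binds the A2 form of ectodysplasin, and lies on the X chromosome (chrX:97333837-97377234). Eda2r was at 1.18, 1.03 and 1.31 CPM in CreMinus kidneys after sham and at 0.54, 1.24 and 1.22 after UNx, and in CrePlus kidneys at 3.52, 3.87 and 3.21 after sham and at 7.44, 4.68 and 6.23 after UNx. The lowest of these rests on 21 counts, and the 6 CrePlus libraries were all above 3 CPM. With Cre, the log2 difference came to 1.59 ± 0.30 after sham and 2.65 ± 0.31 after UNx.

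Phlda3 (chr1:135766085-135769134) encodes a small pleckstrin homology domain protein that competes with the kinase Akt for membrane lipids. Phlda3 was at 5.70, 4.70 and 4.26 CPM in CreMinus and at 7.04, 11 and 8.85 in CrePlus kidneys after sham, and after UNx at 2.88, 6.26 and 6.28 in CreMinus and at 10.3, 9.99 and 9.87 in CrePlus kidneys. Both CrePlus groups were above both CreMinus groups, with sham CrePlus replicate 2 the highest library of all. As log2 fold changes, CrePlus stood 0.87 ± 0.28 above CreMinus after sham and 0.98 ± 0.27 above it after UNx.

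Aen (chr7:78895927-78911209) encodes a nuclease that enlarges DNA breaks during apoptosis. Aen was at 21.9, 23.9 and 27.5 CPM in CreMinus kidneys after sham and at 28.8, 23.7 and 23.8 after UNx, and in CrePlus kidneys at 27.1, 31.0 and 34.9 after sham and at 33.8, 35.3 and 27.0 after UNx. Groups overlapped in both surgeries, and in each of the 4 groups the male libraries were higher than the female ones, by 0.27 to 0.36 on the log2 scale. This gave a Cre difference of 0.34 ± 0.14 (log2) for sham and 0.33 ± 0.14 for UNx animals.

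Trp53inp1 (chr4:11156441-11174379) encodes a nuclear protein that takes part in p53-dependent cell death and in autophagy. Trp53inp1 was at 32.0, 37.1 and 43.7 CPM in CreMinus and at 43.9, 42.3 and 47.4 in CrePlus kidneys after sham, and after UNx at 57.7, 39.5 and 37.1 in CreMinus and at 70.8, 69.9 and 57.4 in CrePlus kidneys. In UNx kidneys the overlap was made by 1 library of each genotype, UNx CreMinus replicate 1, male, at 57.7 CPM and UNx CrePlus replicate 3, female, at 57.4 CPM. Males were higher in all 4 groups for this gene too, by 0.14 to 0.59 on the log2 scale. On the log2 scale CrePlus exceeded CreMinus by 0.24 ± 0.17 after sham and by 0.56 ± 0.17 after UNx.

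Gdf15 (chr8:70629393-70632470), the secreted member of the set, is a stress cytokine of the TGF-beta superfamily that also responds to the integrated stress response. Gdf15 was at 3.62, 4.37 and 5.10 CPM in CreMinus kidneys after sham and at 5.38, 5.66 and 4.10 after UNx, and in CrePlus kidneys at 8.14, 7.80 and 5.09 after sham and at 9.30, 15.2 and 7.87 after UNx. Sham CrePlus replicate 3 was level with the highest sham CreMinus library, and UNx CrePlus replicate 2 was far above the rest of its group. With Cre, the log2 difference came to 0.68 ± 0.27 after sham and 1.09 ± 0.27 after UNx.

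Set side by side, all 10 genes were higher with Cre in both surgeries, as their choice requires, with medians of 0.63 in sham and 0.93 in UNx kidneys on the log2 scale, against 0.00 and -0.01 over all tested genes. With a term for sex in the model, the median averaged over surgery was 0.74 against 0.75 without it, and among female libraries alone it was 0.68. In UNx kidneys all CrePlus libraries but only replicate 1 of CreMinus were deep, so depth moved with Cre there. With terms for sex and log2 library size the UNx median was 0.94, in a fit whose depth term rests mainly on UNx CreMinus. All libraries of CrePlus were above all of CreMinus in 6 members in sham kidneys, where 4.66% of all genes showed this, and in 8 in UNx kidneys, where 8.33% did. These counts restate the choice of the genes.

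The authors' deposited tables give their own values for these genes, and those named here are smaller than the fits above. In the authors' deposited table for UNx kidneys, Cdkn1a is given as 1.50 in log2, Eda2r 1.60, Zmat3 0.91, Plk2 0.79, Gdf15 0.76 and Ccng1 0.59. In the authors' deposited table for sham kidneys, Cdkn1a is given as 0.95, Eda2r 0.78, Zmat3 0.63 and Ccng1 0.48. A second version of that authors' deposited table leaves out sham CrePlus replicate 1, the library whose title carries a group name where the others carry a number, and it gives Phlda3 as 0.74 in log2, against 0.52 in the first version.

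**Figure D2:**
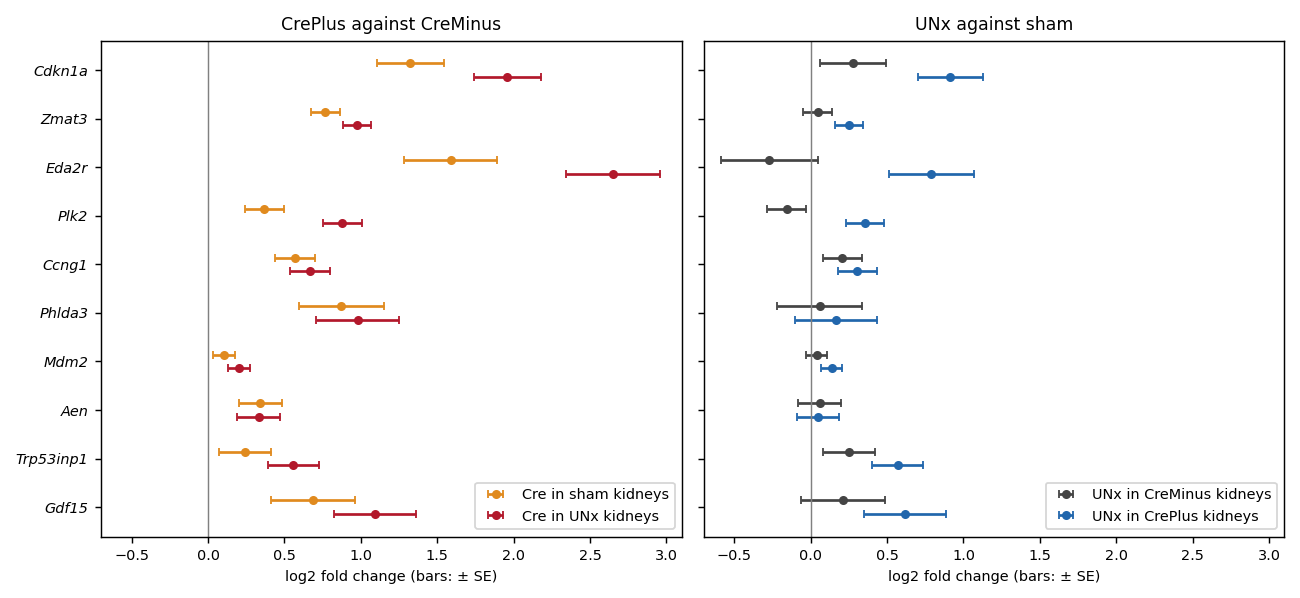
Log2 fold changes (horizontal axes, points with ± SE bars) of the 10 genes, for CrePlus against CreMinus within each surgery on the left and UNx against sham within each genotype on the right. The left side shows the difference on which the genes were chosen, and on the right the values in CreMinus kidneys lie between -0.27 and 0.28 while those in CrePlus kidneys lie between 0.05 and 0.91.

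Removal of 1 kidney was not the difference on which the genes were chosen, and its effect was tested in each genotype. These tests use the same libraries as the choice and are not independent of it. In CreMinus kidneys, none of the 10 genes was called, 8 were higher and 2 (Eda2r and Plk2) lower, and the median was 0.06 on the log2 scale, against 0.00 over all tested genes. Every edgeR adjusted p was 0.9997 for these genes, and none had an unadjusted p under 0.05. Over all genes, edgeR called 0% higher, and 0.668% were higher with an unadjusted p under 0.05. No member had all UNx CreMinus libraries above all sham CreMinus libraries, which 2.67% of all genes did. DESeq2 called none of the 10 either and 2 genes in all. The largest value was that of Cdkn1a at 0.28 ± 0.22 on the log2 scale.

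In CrePlus kidneys, all 10 genes were higher after UNx than after sham, and none passed the correction over all genes by edgeR, which called 0% of genes higher here. Their median log2 fold change was 0.33, against -0.01 over all tested genes. Cdkn1a had the largest value at 0.91 ± 0.21 (SE, edgeR unadjusted p = 0.00128, adjusted p = 0.692), a 1.89-fold difference between fitted group means. For this gene all 3 UNx CrePlus libraries lay above every sham CrePlus library. Eda2r followed at 0.79 ± 0.28, Gdf15 at 0.62 ± 0.27, Trp53inp1 at 0.57 ± 0.17 and Plk2 at 0.35 ± 0.13. The values were 0.31 ± 0.13 for Ccng1, 0.25 ± 0.09 for Zmat3, 0.17 ± 0.27 for Phlda3, 0.14 ± 0.07 for Mdm2 and 0.05 ± 0.14 for Aen. Adjusted p over the 10 ran from 0.692 to 0.99 in edgeR.

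Of the 10, 7 had an unadjusted edgeR p under 0.05 and were higher (the exceptions were Phlda3, Mdm2 and Aen), a state found in 4.15% of all tested genes. In 6 (Cdkn1a, Zmat3, Eda2r, Plk2, Ccng1 and Trp53inp1) every UNx CrePlus library was above every sham CrePlus library, as in 4.73% of all genes. DESeq2 called Cdkn1a alone among the 10 (0.92 on the log2 scale, DESeq2 adjusted p = 0.048) and 0.0623% of all genes as higher. In the authors' deposited table for this comparison, Cdkn1a (0.77, adjusted p = 0.0027 from their DESeq2 test) and Trp53inp1 (0.51, adjusted p = 0.0493) are under 0.05, beside 0.0712% of genes in that direction. The UNx CrePlus libraries are shared with the Cre difference in UNx kidneys on which the genes were chosen, so a high value there enters both.

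Depth and sex moved with this comparison. All UNx CrePlus libraries were deep and all sham CrePlus libraries were not, so surgery and depth cannot be told apart within CrePlus kidneys. In UNx CrePlus 2 of 3 libraries were male, against 1 of 3 in sham CrePlus. Among female libraries alone, where UNx CrePlus is 1 library, the members' median was 0.20 with 8 of 10 higher, and with a sex term in the model it was 0.31 with 9 of 10 higher, on the log2 scale. With terms for sex and log2 library size together the median was 0.36 with 9 of 10 higher, and that fit gave 1.44 for Cdkn1a, 1.82 for Eda2r, 1.21 for Phlda3 and 0.16 for Trp53inp1. The depth term rests mainly on UNx CreMinus, the 1 group with both depths, where the deep library, replicate 1, is also the male one. Among females, Cdkn1a was at 0.55 and Plk2 at 0.18. Phlda3 was at 0.28 with the sex term, at 0.0067 without sham CrePlus replicate 1 and at 0.33 without sham CrePlus replicate 2, and Gdf15 was at 0.29 without UNx CrePlus replicate 2. None of these values passed the correction.

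Other gene lists are given for this comparison too, with 0 genes called by edgeR in each list named here. The cell cycle genes that p53 lowers through p21 were higher after UNx in 18 of 18, with a median of 1.42 on the log2 scale and 14 with an unadjusted p under 0.05, beside the 4.15% of all genes given above. Macrophage markers were higher in 11 of 12 (median 0.92, 2 with such a p), fibroblast and matrix genes in 10 of 10 (0.71, 3 with such a p), T cell markers in 6 of 6 (0.69, 0) and tubular injury genes in 10 of 12 (0.47, 2). Endothelial markers were higher in 8 of 8 (0.39, 2), and collecting duct markers in 0 of 9 (-0.31, 1 lower). Over all 14970 tested genes, 1022 had an unadjusted p under 0.05 in either direction, 621 of them higher. Other p53 targets of arrest and repair were higher in 13 of 20 (0.17, 5). Those of death, metabolism and signalling were higher in 19 of 30 (0.03, 2 higher and 1 lower), and p53 and its regulators in 8 of 22 (-0.04, 1 higher and 1 lower). Higher too were 10 of 12 integrated stress response genes (0.24, 3), 3 of 10 proximal tubule (-0.13, 3 lower), 2 of 8 loop of Henle (-0.21, 1 lower) and 3 of 8 podocyte markers (-0.17, 0). The medians of the cell cycle, macrophage, fibroblast, T cell, injury and endothelial lists were thus above the 0.33 of the p53 targets, and the part of these values in the p53 target differences was not tested.

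The interaction asks whether the Cre difference depends on surgery. The genes were chosen on the Cre differences it compares, so a high UNx CrePlus value enters both the choice and the interaction. It was positive in 9 of 10 genes, with a median of 0.26 on the log2 scale, against -0.02 over all tested genes, and edgeR called 0% of genes, these 10 included. Plk2 (0.51 ± 0.18, edgeR unadjusted p = 0.0159) and Eda2r (1.06 ± 0.42, edgeR unadjusted p = 0.0297) were higher with an unadjusted p under 0.05, as were 1.14% of all genes, and both had an adjusted p of 0.9999 in edgeR. Cdkn1a had 0.64 ± 0.30 (edgeR unadjusted p = 0.0603, adjusted p = 0.9999). Aen was at -0.01 ± 0.20, a value smaller than its SE, which does not show that the Cre differences were equal. DESeq2 called no gene for the interaction. A larger Cre difference after UNx than after sham is therefore not established for any of the 10 genes.

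Compared per kilobase of annotated exon, the 10 genes covered a wide range of levels. Ccng1 was the most abundant in every group, at 56.0 ± 5.33 CPM per kilobase in sham CreMinus and 103 ± 2.15 in UNx CrePlus (SD, n = 3). Mdm2 was second in all groups, at 16.2 ± 0.86 in sham CreMinus. Eda2r was the lowest throughout, at 0.24 ± 0.03 in sham CreMinus and 1.28 ± 0.29 CPM per kilobase in UNx CrePlus.

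Cdkn1a stood higher in this order in CrePlus kidneys. In sham CreMinus kidneys it was 6th at 3.46 ± 0.50 CPM per kilobase (SD, n = 3), with libraries that overlapped those of its neighbours Plk2 (4.23) and Phlda3 (3.40). In sham CrePlus it was 3rd at 8.66 ± 1.26, overlapping with Trp53inp1 (8.24), and in UNx CrePlus it was 3rd at 16.3 ± 2.31, apart from both Mdm2 above it and Trp53inp1 (12.2) below it. In UNx CrePlus the neighbours Phlda3, Plk2, Zmat3, Aen and Gdf15, at 7.0 to 5.82 CPM per kilobase, overlapped with one another in turn and had no clear order.

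A score averaged the 10 genes, each as log2 CPM standardised over the 12 libraries. It placed every CrePlus library above every CreMinus library, which restates the choice of the genes. CreMinus libraries scored -0.91, -1.01 and -0.71 after sham and -0.69, -0.55 and -0.83 after UNx, and CrePlus libraries 0.20, 0.42 and 0.51 after sham and 1.34, 1.42 and 0.82 after UNx. The 2 CreMinus groups overlapped and the 2 CrePlus groups did not. All UNx CrePlus libraries were deep and no sham CrePlus library was, so surgery and depth cannot be told apart there. Within UNx CrePlus the 1 female library was the lowest.

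Over the 12 libraries the 45 pairs of members had Pearson correlations of log2 CPM from 0.34 to 0.95, with a median of 0.79, as genes chosen on one group difference must. After the group means were removed the median was 0.05 and 26 of 45 pairs were positive. Within-group correlations were highest for Aen with Trp53inp1 (0.83), Zmat3 with Ccng1 (0.77) and Eda2r with Phlda3 (0.76), and lowest for Phlda3 with Trp53inp1 (-0.80). UNx CreMinus replicate 1, deep and male, was the lowest library of its group for Cdkn1a, Eda2r and Phlda3 and the highest for Aen and Trp53inp1. These values describe 12 libraries that share 4 group means, and depth and sex move with that library.

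Among 12797 genes with a mean of at least 1 CPM, those most like the score over the 12 libraries were the zinc transporter Slc39a1 (Pearson r 0.95), Vat1 (0.95), the aldo-keto reductase Akr1b8 (0.94), the splicing helicase Dhx38 (0.94) and Msn, which encodes the membrane linker moesin (0.94). Slc39a1 was at 80.0 ± 2.11 CPM in CreMinus and at 96.0 ± 4.82 in CrePlus kidneys after sham, and after UNx at 83.4 ± 4.06 in CreMinus and at 107 ± 4.28 in CrePlus kidneys (SD, n = 3). The most opposed were Ninl (-0.96), the purine receptor gene P2ry1 (-0.94) and Mppe1 (-0.94). Ninl, a centrosomal protein gene, was at 52.9 ± 3.84 CPM in CreMinus kidneys after sham and at 53.4 ± 4.62 after UNx, and in CrePlus kidneys at 37.3 ± 5.22 after sham and at 28.5 ± 5.85 after UNx. The score was built from genes chosen on the Cre difference, so genes near it follow the same groups by construction.

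No p53 regulator and none of the other listed p53 targets passed the test for Cre averaged over surgery. Trp53, the gene for p53 itself, was at 27.3, 22.7 and 27.4 CPM in CreMinus and at 28.2, 22.3 and 26.8 in CrePlus kidneys after sham, and after UNx at 27.8, 25.4 and 28.0 in CreMinus and at 29.9, 34.3 and 23.9 in CrePlus kidneys. The groups overlapped, and its log2 fold change with Cre averaged over surgery was 0.06 ± 0.10 (SE, edgeR adjusted p = 0.848). Mdm4, the Mdm2 relative that restrains p53, had -0.20 ± 0.20 (edgeR adjusted p = 0.714). Cdkn2a, whose alternative product p19Arf blocks Mdm2, was under the filter, with group means of at most 0.08 CPM. Protein levels and modification of p53 were not measured.

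For 24 genes of p53 and its regulators, 22 were tested, 11 were higher with Cre averaged over surgery and 0 were called by edgeR, with a median of 0.00 on the log2 scale. The members of smallest p were the checkpoint kinase Chek1 (1.08 ± 0.31, edgeR adjusted p = 0.203) and the p53 inhibitor Ppp1r13l (0.23 ± 0.09, edgeR adjusted p = 0.39). Of 20 other p53 targets of arrest and DNA repair, all tested, 14 were higher and 0 were called, with a median of 0.10. Gtse1, named above, and Ckap2, a spindle protein gene (0.91 ± 0.41, edgeR adjusted p = 0.416), had the smallest p.

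Of 30 other p53 targets of cell death, metabolism and signalling, all tested, 19 were higher with Cre and 0 were called by edgeR, with a median of 0.05 on the log2 scale. The cytokine gene Lif was highest among them at 2.12 ± 0.48 (edgeR adjusted p = 0.0938), with 0.49 ± 0.20 CPM (SD, n = 3) in CreMinus and 1.52 ± 1.29 in CrePlus kidneys after sham, and 0.54 ± 0.26 and 3.15 ± 1.63 after UNx. Cd82, a tetraspanin, was at -0.25 ± 0.09 (edgeR adjusted p = 0.328). The counts by unadjusted p under 0.05 were 2 higher of the regulators, 2 higher of the arrest and repair targets, and 2 higher and 1 lower of the others, where over all tested genes 6.71% were higher and 5.13% lower with such a p. Among 22, 20 and 30 genes these counts are near that background. The 10 genes described here were taken out of these lists because they were higher, so the lists hold what was left.

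**Figure D3:**
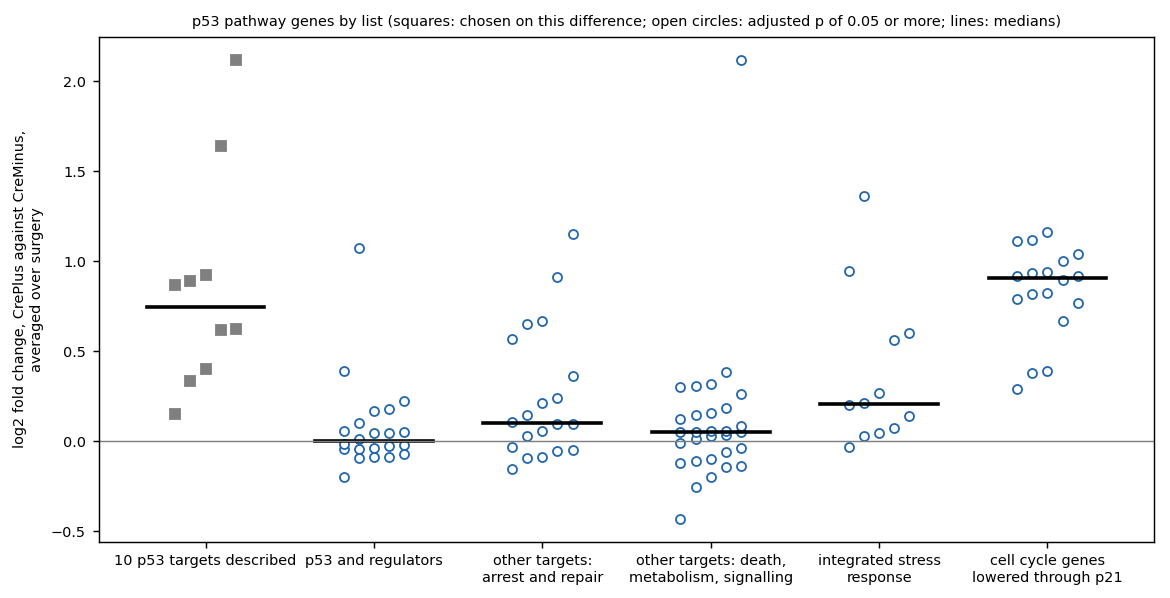
Log2 fold change of CrePlus against CreMinus averaged over surgery (vertical axis) for each tested gene of 6 lists (horizontal axis), with black lines at the medians; squares are the 10 genes chosen on this difference and open circles are genes with an edgeR adjusted p of 0.05 or more. The medians of p53 and its regulators and of the other p53 targets lie at 0.00, 0.10 and 0.05, and that of the cell cycle genes at 0.91.

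p21 is known to lower a group of cell cycle genes through the DREAM complex, a repressor of genes for DNA replication and mitosis. All 18 genes of this kind that were listed were higher in CrePlus kidneys, with a median of 0.91 on the log2 scale averaged over surgery. None was called by edgeR, and 10 had an unadjusted p under 0.05, beside the 6.71% of all genes that were higher with such a p. Top2a, the topoisomerase of dividing cells, had 1.12 ± 0.40 (edgeR adjusted p = 0.308) and the mitotic kinase Plk1 had 0.92 ± 0.32 (edgeR adjusted p = 0.299). Their summed level was at 60.5, 41.9 and 59.9 CPM in CreMinus kidneys after sham and at 92.8, 116 and 46.0 after UNx, and in CrePlus kidneys at 77.3, 58.0 and 94.5 after sham and at 229, 250 and 72.2 after UNx. Expression of Cdkn1a and of the genes that p21 lowers was thus high in the same 2 male UNx CrePlus libraries.

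In UNx CrePlus replicate 3, the female library of that group, the cell cycle sum of 72.2 CPM lay inside the UNx CreMinus range of 46.0 to 116. Of the 10 p53 targets, 8 lay above every CreMinus library there, among them Cdkn1a (37.3 CPM), Eda2r (6.23 CPM) and Zmat3 (50.4 CPM). Aen (27.0 CPM) and Trp53inp1 (57.4 CPM) lay inside the CreMinus range, which reached 28.8 and 57.7 CPM. The 10 genes were chosen for being higher with Cre, so their place above CreMinus libraries restates the choice. The share of all tested genes placed in this way was not counted, and nothing is read from the number.

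Integrated stress response genes, which share Gdf15 as a target, had 11 of 12 tested members higher with Cre averaged over surgery (14 listed), 0 called, 4 with an unadjusted p under 0.05 (all higher, as were 6.71% of all genes) and a median of 0.21 on the log2 scale. Asns, asparagine synthetase, had 0.95 ± 0.19 (edgeR adjusted p = 0.058) and Psat1, an enzyme of serine synthesis, had 0.56 ± 0.17 (edgeR adjusted p = 0.238).

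Tubular injury genes were higher in 12 of 12 with a median of 0.39 and 0 called, led by Krt20 (2.16 ± 0.62, edgeR adjusted p = 0.197) and Lcn2 (2.48 ± 0.73, edgeR adjusted p = 0.204). Of the 12, 4 were higher with an unadjusted edgeR p under 0.05, beside 6.71% of all genes. Their summed level overlapped between genotypes: after sham, CreMinus ranged from 1384 to 2670 CPM and CrePlus from 1199 to 4075, and after UNx, from 1578 to 3964 and from 2980 to 4425. Spp1, which encodes osteopontin, made up most of that sum, with a mean of 2242 CPM over all libraries. The part of tubular injury in the p53 target differences was not tested.

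For macrophage markers the Cre difference is given within each surgery, and none was called by edgeR in either. After sham, 4 of 12 were higher in CrePlus kidneys, with a median of -0.16 on the log2 scale and 0 with an unadjusted p under 0.05. After UNx, 11 of 12 were higher, with a median of 1.25 and 7 with an unadjusted p under 0.05, where 6.15% of all genes were higher with such a p. That median was above the 0.93 of the p53 targets in UNx kidneys. Averaged over surgery, 12 of 12 were higher, with a median of 0.46 and 0 called. Only 1 of them had an unadjusted p under 0.05, where 6.71% of all genes were higher with such a p. The interaction was positive in 11 of 12 with a median of 1.32, 0 called and 2 with an unadjusted p under 0.05. Over all genes 1.14% were higher in the interaction with such a p.

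Summed over the list, macrophage markers ranged over 130 to 345 CPM in CreMinus and 144 to 236 CPM in CrePlus kidneys after sham, and over 142 to 164 CPM and 166 to 320.5 CPM after UNx. Csf1r, the receptor for macrophage colony-stimulating factor, had the highest mean of the list in each group, at 69.8 to 85.8 CPM. Unlike the other listed markers it was not higher with Cre after UNx (-0.03 ± 0.16 in log2, SE). Lyz2, a lysozyme gene, varied most in sham CreMinus kidneys (45.8 ± 61.0 CPM, SD, n = 3). T cell markers had medians of -0.09 after sham and 1.20 after UNx, and fibroblast and matrix genes of -0.23 and 0.56. The part of macrophages and of these other cells in the Cre difference of the p53 targets was not tested.

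Of the other marker lists, T cell markers had 5 of 6 tested members higher (median 0.57), proximal tubule 5 of 10 (-0.07), loop of Henle and distal tubule 0 of 8 (-0.28), collecting duct 5 of 9 (0.02), podocyte 1 of 8 (-0.29), endothelial 5 of 8 (0.04) and fibroblast and matrix 6 of 10 (0.20), all with 0 called by edgeR and with medians as log2 fold changes with Cre averaged over surgery. The counts by unadjusted p under 0.05 over these 7 lists were 2 higher of the T cell markers, 1 higher of the fibroblast and matrix genes, 3 lower of the Henle loop and distal tubule markers, 1 higher and 4 lower of the collecting duct markers and 0 of the rest, beside 6.71% higher and 5.13% lower over all genes. The part of these shifts in the p53 target differences was not tested.

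**Figure D4:**
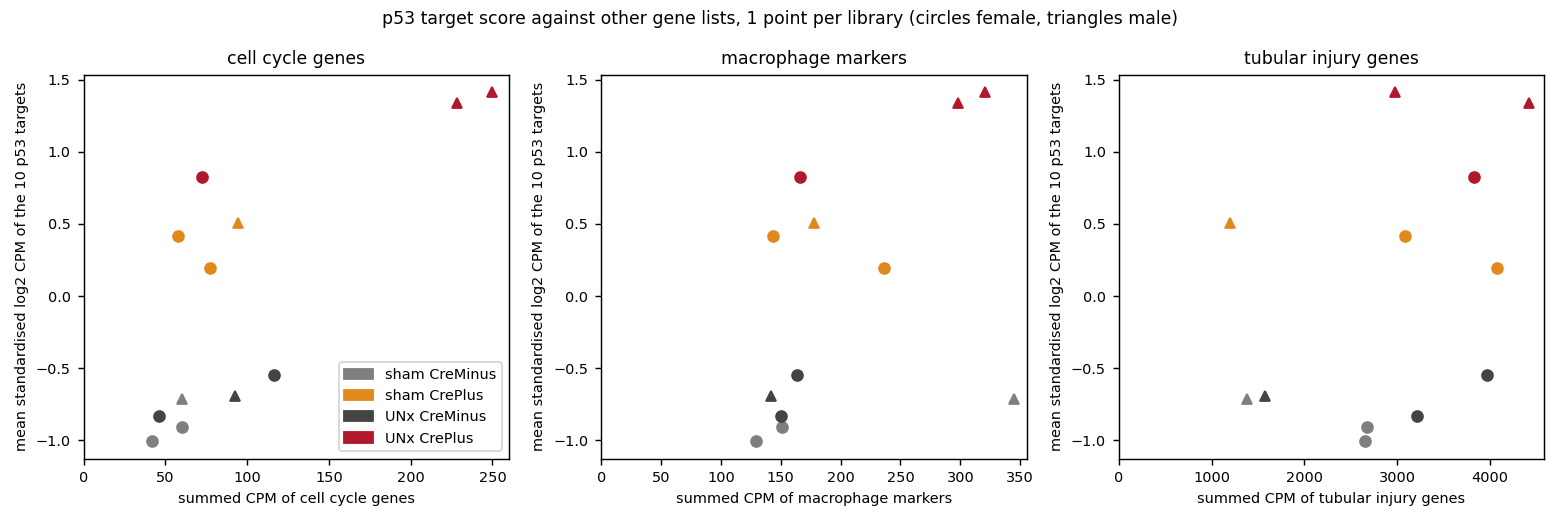
Mean standardised log2 CPM of the 10 p53 targets (vertical axis) against the summed CPM (horizontal axes, from 0) of cell cycle genes, macrophage markers and tubular injury genes, 1 point per library, coloured by group, with circles for female and triangles for male libraries. CrePlus libraries lie between 0.20 and 1.42 and CreMinus libraries between -1.01 and -0.55, which restates the choice of the genes. The sums overlap between genotypes in all 3 lists. Within UNx, the macrophage sums do not overlap (142 to 164 CPM in CreMinus, 166 to 320.5 CPM in CrePlus). Cell cycle sums of 229 and 250 CPM in UNx CrePlus exceed every CreMinus sum.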

How the data were processed

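Whole-kidney RNA was extracted with a column kit with DNase treatment and libraries were made with SMART-Seq v4, which does not mark strand, per the labels' protocols. The authors deposited tables of read counts per gene (24067 rows, 5 repeated symbols kept once) in whole numbers. The submitters' processing notes list cutadapt 1.11, FastQC 0.11.5, DESeq2 and HTSeq, and name mm10 and GRCm38 as builds. For the aligner and the annotation, nothing was given in the sources used here. The same deposited tables hold the authors' log2 fold changes, their standard errors, a test statistic (a score per gene) and p-values.

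From the counts, R 4.3.3 with edgeR 4.0.16 (quasi-likelihood test) fitted 4 group means to all 12 libraries after filterByExpr, with TMM factors of 0.926 to 1.05. Calls are at a Benjamini-Hochberg adjusted p under 0.05 over all 14970 genes. CPM was computed with TMM-scaled library sizes and log2 CPM with a prior count of 2. SE is the fold change over the square root of F. DESeq2 1.42.0 was an alternative. The fit was tested on simulated data. Exon lengths and positions come from GENCODE and RefSeq for GRCm38. No other gene in the tables overlaps the exons of the 10 genes, but an unclassified opposite-strand transcript overlaps those of Cdkn1a, and without strand reads of the pair cannot be told apart. Nothing in the labels says that libraries of a group are separate litters or batches, so p-values cover the spread between libraries, which may be technical in part. Counting error is not separated from duplicate reads.

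The 10 genes and the 14 other gene lists were chosen with earlier results of these data known. Of 191 list entries, 190 were matched to the tables, 4 of them by an older or alternative symbol. The rule named all 10 genes, up to 4 called genes of each other list or else the 2 of smallest p, and the 5 genes most like and the 3 least like the score; Trp53, Mdm4 and Cdkn2a were added because of their roles, and the remaining promoter-site genes because they are few.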

Additional observations from a re-analysis of the deposited data

How the results depend on the processing

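No paired analysis was possible because the labels give no replicate numbers. Over all genes, edgeR called 4 for the Cre effect in sham kidneys, 21 for the Cre effect in UNx kidneys, 78 for the Cre effect averaged over surgery, and 0 for the UNx effect in CreMinus kidneys, the UNx effect in CrePlus kidneys and the interaction of Cre and surgery. DESeq2 called 42, 188, 385, 2, 10 and 0. With a sex term edgeR called 10, 112 and 295 for the Cre comparisons, in females only 7, 5 and 27, and with only the groups compared 0 in sham and 9 in UNx. In UNx kidneys it called 13 with relative log expression scaling and 8 with sex and depth terms. Leaving out 1 library gave 0 to 3 in sham (0 without sham CreMinus replicate 2), 6 to 48 in UNx (6 without UNx CreMinus replicate 3, 48 without UNx CrePlus replicate 3) and 25 to 136 averaged (25 without sham CreMinus replicate 1, 136 without UNx CrePlus replicate 3). The cause was not tested.

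For the Cre comparisons all 10 genes stayed higher in every alternative, a direction their choice fixes. Their signs turned only for UNx and the interaction, on the log2 scale. In females only, Eda2r for UNx in CreMinus was 0.15, Aen and Gdf15 for UNx in CrePlus were -0.10 and -0.012, and Phlda3 and Gdf15 for the interaction were -0.13 and -0.30. Aen for UNx in CrePlus was -0.053 with a sex term and -0.0066 with sex and depth terms. Leaving out 1 library gave, for UNx in CreMinus, Zmat3 -0.025 to 0.14, Eda2r -0.47 to 0.067, Phlda3 -0.12 to 0.36 and Aen -0.041 to 0.15. It gave Aen -0.052 to 0.16 for UNx in CrePlus. For the interaction it gave Ccng1 -0.024 to 0.23, Phlda3 -0.19 to 0.28 and Aen -0.11 to 0.10. The lowest count of any of the 10 genes was 21, for Eda2r in UNx CreMinus replicate 1, one of the deep libraries.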
